A study of Drosophila melanogaster with 9 samples.

Results

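The proteasome subunit genes of Drosophila were followed in sorted embryonic mesodermal cells, in controls and in embryos labelled as null for 1 or the other of 2 Forkhead transcription factor genes. The genes were chosen by name: symbols that begin with Prosalpha or Prosbeta, or with Pros, Rpn or Rpt followed by a digit. Earlier results of these data were known when this choice was made. The rule found 40 of the 11982 genes with a named probe set, and each was read by 1 probe set. They comprise 12 subunits of the core particle, 14 subunits of the regulatory particle and 14 second copies of subunit genes. Another 8 genes whose symbols fit the rule had no probe set of their own and were not analysed here, among them Prosbeta1, Prosalpha1 and Rpn10.

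The proteasome is the large protease that destroys proteins tagged with ubiquitin. Its core particle is a barrel of stacked rings: outer alpha rings gate the entrance and inner beta rings hold the cutting sites. The regulatory particle caps the barrel, where a base with a ring of ATPases unfolds the substrate and a lid removes its ubiquitin. In fruit flies many subunits also have a second gene, and several of these copies are known from the male germline.

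Green fluorescent cells were sorted from stage 11 to early stage 12 embryos, and total RNA of these cells was labelled and hybridised to Affymetrix arrays, 3 for each of 3 groups. In every group the driver twi-GAL4 and the reporter UAS-2EGFP marked cells that express Twist, the transcription factor of the early mesoderm. Controls carried these transgenes and neither deletion. The second group carried Df(1)CHES-1-like1, a CHES-1-like null, and the third was homozygous for Df(3R)Exel6157, labelled a jumu null. In the jumu group the titles write twi-GAL4 on one homologue and UAS-2EGFP on the other, each with the deficiency, so transgene copy number or arrangement may differ from the other groups. A chromosomal deficiency can remove neighbouring genes as well, and no member lay close to a target: 72 measured genes separated jumu from the nearest member on its chromosome, Rpt3R, and 98 separated CHES-1-like from Rpt4. The labels do not say whether replicate arrays came from separate embryo collections, so the spread behind each p-value may be technical only.

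All values are log2 signals per probe set, and changes are log2 differences between group means. CHES-1-like had a signal of 12.00 ± 0.034 (SD, n = 3) in controls and 4.04 ± 0.25 in its null, and jumu had 10.52 ± 0.059 in controls and 8.13 ± 0.12 in its deficiency. CHES-1-like fell below the background bound given next, while jumu stayed above it in the arrays labelled as its deficiency (7.99 to 8.21). The jumu deficiency had less CHES-1-like signal than controls too, at 11.39 ± 0.21 and a change of -0.61 (adjusted p = 0.00557 by limma). Pearson correlations over probe sets were 0.998 to 0.999 between arrays of a group and 0.985 to 0.993 between groups. The 5 measured mesoderm markers of 8 listed, including twi and the FGF receptor gene htl, were all above background; Mef2, a defining muscle factor, was not analysed here. Background was taken as the 95th percentile of 125 chemoreceptor probe sets, a log2 signal of 5.28. Markers of other cell types were above it too, namely 6 of 6 each for neural, epidermal and haemocyte cells.

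All 26 core and regulatory subunit genes were far above background, with mean signals of 9.85 to 12.15. Arrays of a group agreed closely for them, with a median pooled SD of 0.033 and a highest of 0.070, for Rpn6. Prosbeta5, Prosbeta7, Rpn6, Rpn13 and Rpn12R were read by probe sets of the s_at type, which can also detect other transcripts.

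Core particle genes were mostly higher than in controls in CHES-1-like nulls and mostly lower in the jumu deficiency, by small amounts. In CHES-1-like nulls 8 of 12 were higher than in controls and 0 were lower, with a median change of 0.20 (limma, adjusted p under 0.05; 8 had an unadjusted p under 0.05). In the jumu deficiency 1 was higher and 7 were lower, with a median of -0.17. Against CHES-1-like nulls, 10 of 12 were lower in the jumu deficiency and 0 were higher, with a median of -0.31 (10 had an unadjusted p under 0.05). These comparisons share arrays, so the last is not separate evidence beside the others.

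Many genes differed between these groups, and the counts have to be read against that. In CHES-1-like nulls 17.1% of all genes were higher and 18.6% were lower than in controls, and among the 2355 genes at least as bright as the dimmest of the 26 subunits these shares were 26.2% and 29.9%. In the jumu deficiency 17.6% of all genes were higher and 21% were lower, and of the bright genes 21.6% and 30.1%. Between the mutants 21.2% of all genes were higher in the jumu deficiency and 21.1% lower, and of the bright genes 31% and 30.6%. For the core particle the shares were 66.7% higher in CHES-1-like nulls, 58.3% lower in the jumu deficiency and 83.3% lower between the mutants. Median changes of all genes were 0.025, 0.013 and 0.00092 in the same order of comparisons.

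The groups did not overlap, array against array, for 12 of 12 core genes in CHES-1-like nulls against controls, 10 in the jumu deficiency against controls and 11 between the mutants. Among all genes this held for 50%, 54.2% and 51.7%. Of the 2355 genes at least as bright as the dimmest subunit it held for 1868, 1752 and 1794. Groups without overlap were thus frequent among bright genes in general. Averaged over the 12 core genes, the log2 signal was 11.06, 11.05 and 11.04 in the control arrays, 11.23 in each of the 3 CHES-1-like null arrays, and 10.91, 10.92 and 10.96 in the jumu deficiency arrays. The 3 groups were therefore apart from each other in this average. Over the 14 regulatory genes the group means were 11.12 ± 0.0076 in controls, 11.08 ± 0.015 in CHES-1-like nulls and 11.09 ± 0.014 in the jumu deficiency.

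**Figure D1:**
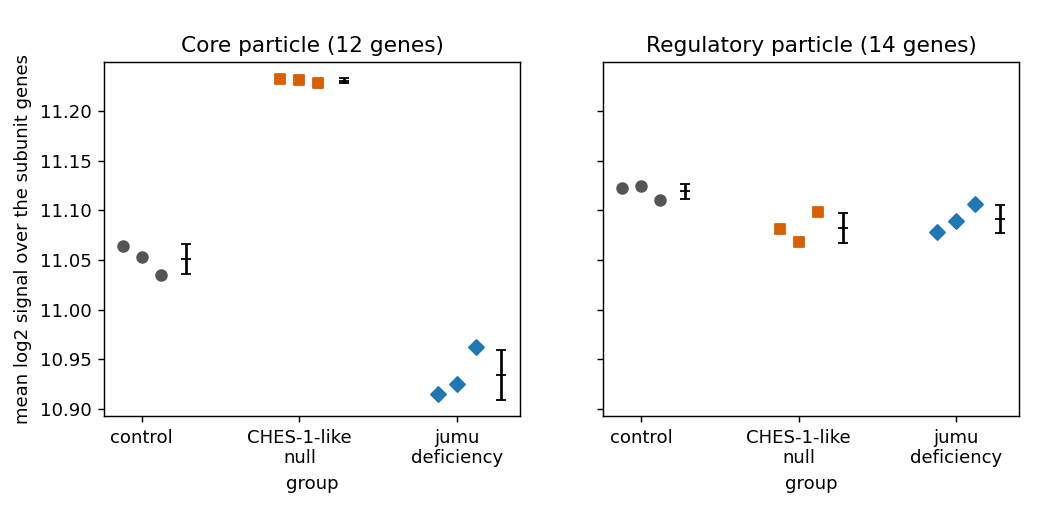
Mean log2 signal over the 12 core genes (left) and the 14 regulatory genes (right) in each array, grouped by genotype; marks beside the points are the group mean with its SD (n = 3). Core means were 11.23 in all CHES-1-like null arrays, between 11.04 and 11.06 in controls and between 10.91 and 10.96 in the jumu deficiency, while regulatory means stayed between 11.07 and 11.12 in all 9 arrays; the axis does not start at 0.

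In the alpha ring, whose subunits gate the barrel, Prosalpha4 differed most. Its signal was 9.89, 9.80 and 9.83 in the controls, 10.14, 10.20 and 10.10 in CHES-1-like nulls, and 9.47, 9.58 and 9.63 in the jumu deficiency. No array of one group reached into another. Prosalpha4 was higher by 0.31 (SE 0.053, adjusted p = 0.0019 by limma) in CHES-1-like nulls and changed by -0.28 (SE 0.053, adjusted p = 0.00296) in the jumu deficiency. Between the mutants its change was -0.59 (adjusted p = 2.14e-05): on the linear scale it decreased by 33.4%, the only called change of any member past 1.5-fold.

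Prosalpha6 was read at 11.16, 11.14 and 11.12 in controls, 11.36, 11.32 and 11.33 in CHES-1-like nulls, and 10.87, 10.88 and 10.90 in the jumu deficiency. Prosalpha7 was read at 10.86, 10.85 and 10.83, then 11.05, 11.07 and 11.01, and then 10.61, 10.61 and 10.62 in the same order of groups. Both genes thus lay on 3 separate levels. Prosalpha6 changed by 0.20 (SE 0.036, adjusted p = 0.00274) in CHES-1-like nulls, by -0.26 (adjusted p = 0.000509) in the jumu deficiency and by -0.45 (adjusted p = 9.51e-06) between the mutants. Prosalpha7 changed by 0.20 (SE 0.037, adjusted p = 0.00318), by -0.23 (adjusted p = 0.0011) and by -0.43 (adjusted p = 1.64e-05).

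Of the other alpha genes, Prosalpha5 kept this order with no overlap between groups, while Prosalpha3 and Prosalpha2 did not keep it. Prosalpha5 was higher in CHES-1-like nulls by 0.27 (SE 0.038, adjusted p = 0.000604) and was not called in the jumu deficiency, at -0.075 (adjusted p = 0.177). Prosalpha3 was lower in the jumu deficiency by 0.20 on the log2 scale, a change of -0.20 (SE 0.048, adjusted p = 0.0111), and had a negative, uncalled value in CHES-1-like nulls as well, -0.095 (adjusted p = 0.181). Prosalpha2 was called in none of the comparisons, with 0.058 in CHES-1-like nulls and 0.037 in the jumu deficiency.

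The beta ring holds the cutting sites, on the subunits beta1, beta2 and beta5. Prosbeta5, which carries the chymotrypsin-like site, was read at 11.05, 11.11 and 11.10 in controls, 11.37, 11.35 and 11.39 in CHES-1-like nulls, and 11.07, 11.07 and 11.10 in the jumu deficiency. The CHES-1-like null arrays were all higher than the others, and those of the jumu deficiency lay within the range of the controls. Prosbeta5 changed by 0.28 (SE 0.038, adjusted p = 4e-04) in CHES-1-like nulls, by -0.0067 (SE 0.038, adjusted p = 0.92) in the jumu deficiency and by -0.29 (adjusted p = 0.00024) between the mutants.

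Prosbeta2, which carries the trypsin-like site, lay on a separate level in each group, unlike Prosbeta5. Its signal was 11.90, 11.88 and 11.91 in controls, 11.94, 11.93 and 12.00 in CHES-1-like nulls and 11.71, 11.70 and 11.76 in the jumu deficiency. The jumu deficiency arrays were the lowest, and the change from controls was -0.18 (SE 0.040, adjusted p = 0.00742). In CHES-1-like nulls it was not called, at 0.060 (adjusted p = 0.307), although the arrays did not overlap. Between the mutants Prosbeta2 changed by -0.24 (adjusted p = 0.00111).

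Prosbeta3, a structural beta subunit, was read at 11.18, 11.22 and 11.15 in controls, 11.51, 11.43 and 11.49 in CHES-1-like nulls, and 11.00, 10.96 and 11.04 in the jumu deficiency. It lay on 3 separate levels as Prosalpha4 did. Its changes were 0.29 (SE 0.043, adjusted p = 0.000622) in CHES-1-like nulls, -0.18 (adjusted p = 0.00873) in the jumu deficiency and -0.48 (adjusted p = 1.87e-05) between the mutants.

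Prosbeta7, another structural subunit, was higher in both mutants. Its signal was 11.26, 11.26 and 11.27 in controls, 11.61, 11.59 and 11.67 in CHES-1-like nulls, and 11.39, 11.44 and 11.48 in the jumu deficiency. Both mutants were above controls on every array. It had the largest rise of any member in CHES-1-like nulls, 0.36 (SE 0.042, adjusted p = 0.000166), and was the single core gene higher in the jumu deficiency, at 0.17 (adjusted p = 0.0109); that call did not hold after centring each array on its median (0.11, adjusted p = 0.0908).

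Prosbeta6 changed by 0.16 (adjusted p = 0.0177) in CHES-1-like nulls and by -0.17 (adjusted p = 0.0116) in the jumu deficiency. The first call was lost with any 1 of control replicate 1, control replicate 3 and CHES-1-like null replicate 2 left out (adjusted p = 0.0606, 0.0731 and 0.06) and after centring (adjusted p = 0.103), and the second without control replicate 2 (adjusted p = 0.0507). Prosbeta4 was called only between the mutants, at -0.11 (adjusted p = 0.0463), and that call was lost whichever of the 6 arrays was left out (adjusted p = 0.0589 to 0.132), after centring (adjusted p = 0.0549) and under quantile normalization (adjusted p = 0.137). With it, 6 of 6 beta ring genes were lower in the jumu deficiency than in CHES-1-like nulls, and the smallest other change was that of Prosbeta7, -0.18 (adjusted p = 0.00649).

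**Figure D2:**
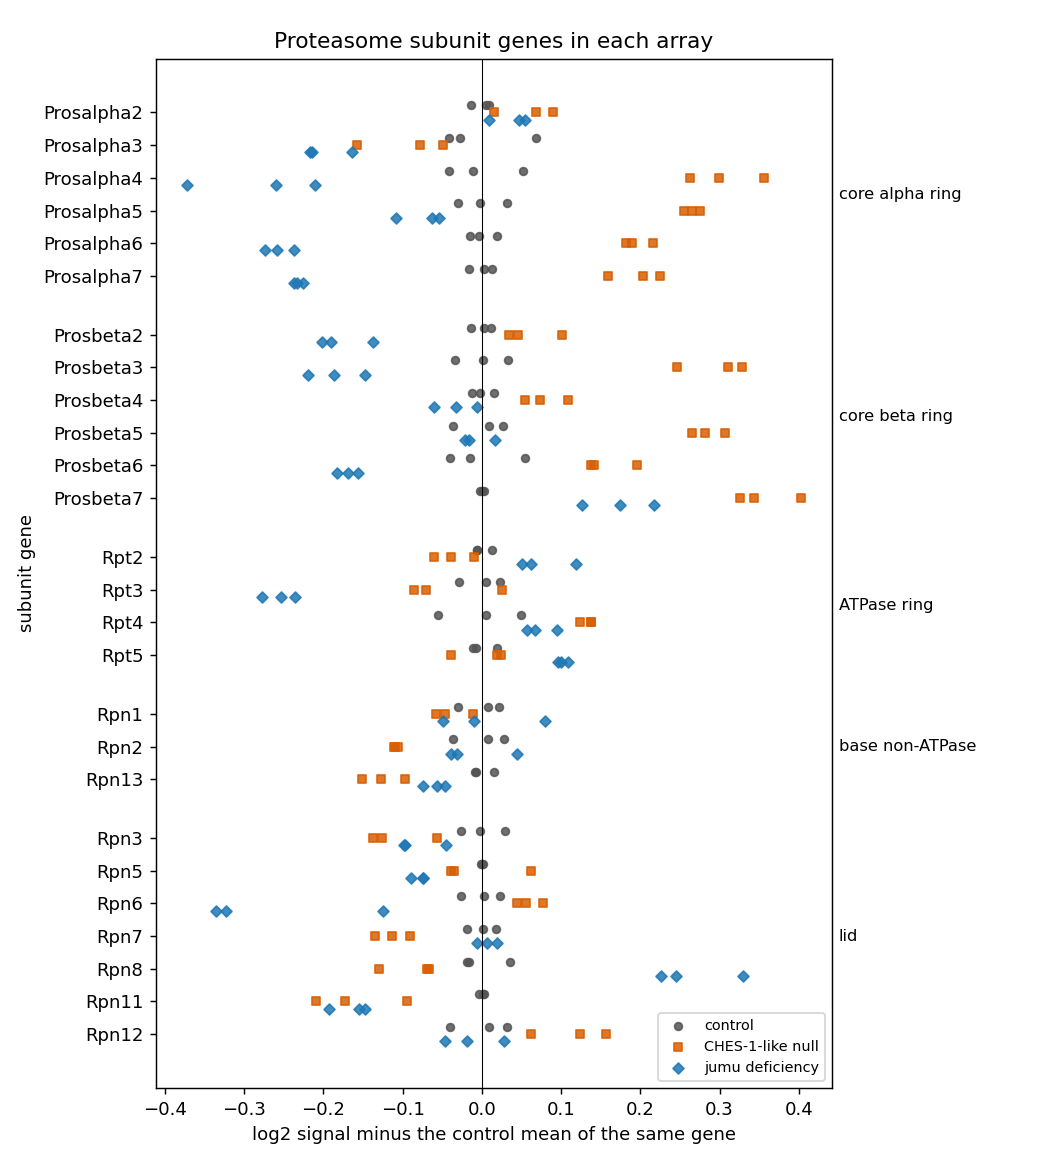
Log2 signal of each core and regulatory subunit gene in each of the 9 arrays, minus the control mean of that gene, with 1 point per array and rows ordered by role. CHES-1-like null arrays lay to the right and jumu deficiency arrays to the left for Prosalpha4 to Prosalpha7, Prosbeta2, Prosbeta3, Prosbeta4 and Prosbeta6. Both lay to the right for Prosbeta7, and regulatory genes lay on either side.

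Most core genes also resembled each other in how the genotypes differed. Each core gene was correlated over the 9 arrays with the mean of the other core genes, and the median Pearson r was 0.95, with Prosbeta3 highest at 0.99 and Prosalpha3 lowest at 0.34. For the regulatory genes, set against the mean of all core genes, the median r was -0.34 and the range ran from -0.89 for Rpn7 to 0.81 for Rpn6. The 9 arrays fall into 3 genotypes, and with group means removed the medians were 0.39 and 0.30, so these values mostly describe the differences between genotypes.

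Regulatory particle genes were called in both directions in every comparison. The mean over the 14 genes was 11.11 to 11.12 in the control arrays and 11.07 to 11.11 in the mutant arrays, with every mutant array below every control. The mean over all genes as bright as the subunits did the same, at 11.064 to 11.068 in controls and 11.034 to 11.055 in the mutants. The small fall was thus not particular to the regulatory genes. In CHES-1-like nulls 1 of 14 was higher and 3 were lower than in controls, with 10 of 14 values negative and a median of -0.041. In the jumu deficiency 1 was higher and 3 were lower, with a median of -0.011 that was 0.020 after quantile normalization. Between the mutants 3 were higher and 2 were lower in the jumu deficiency, with a median of 0.036. After centring each array on its median the counts were 0 higher and 4 lower in CHES-1-like nulls, 1 higher and 5 lower in the jumu deficiency, and 1 higher and 3 lower between the mutants. The shares called, from 7.14% to 21.4%, were below those of the bright genes in every direction. Set against all genes, 21.4% lower compares with 18.6% in CHES-1-like nulls and 21% in the jumu deficiency, and 21.4% higher with 21.2% between the mutants. Counts near or under the background do not show that these genes kept the same level, and their SE had a median of 0.041.

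In the ATPase ring, which unfolds substrates, Rpt3 was lower in the jumu deficiency, with a change of -0.26 (SE 0.043, adjusted p = 0.0015) from controls and -0.21 (adjusted p = 0.00373) from CHES-1-like nulls. Rpt4 was higher in CHES-1-like nulls by 0.13 (adjusted p = 0.036), a call that was kept without control replicate 1 and lost without any 1 of the other 5 arrays compared (adjusted p up to 0.136) and also lost after centring (adjusted p = 0.204). Rpt2 was higher in the jumu deficiency than in CHES-1-like nulls by 0.11 (adjusted p = 0.0478), a call lost without any 1 of the 6 arrays (adjusted p = 0.0625 to 0.145) and after centring (adjusted p = 0.223). Rpt5 was not called, with 0.10 (adjusted p = 0.0686) in the jumu deficiency. Alternative limma fits did call it higher there. These were quantile normalization (adjusted p = 0.0311), the filter on dim probe sets (0.0215), a variance trend with robust estimation (0.00469) and array weights (0.0451).

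Among the base subunits that are not ATPases, Rpn13, a receptor for ubiquitin, was read at 10.99, 11.01 and 10.99 in controls, 10.90, 10.87 and 10.84 in CHES-1-like nulls, and 10.95, 10.94 and 10.92 in the jumu deficiency. The CHES-1-like null arrays were the lowest, at a change of -0.13 (SE 0.037, adjusted p = 0.0294). That call was kept without CHES-1-like null replicate 1 and lost without any 1 of the other 5 arrays compared (adjusted p up to 0.097). The scaffold subunits Rpn1 and Rpn2 were not called in any comparison, and their changes ran from -0.11 to 0.10. Some alternative limma fits called Rpn2. With the filter on dim probe sets it was lower in CHES-1-like nulls (adjusted p = 0.028) and higher between the mutants (adjusted p = 0.0344).

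The lid carries Rpn11, the enzyme that cuts ubiquitin from the substrate, paired with the inactive Rpn8. Rpn11 was read at 11.41, 11.41 and 11.40 in controls, 11.24, 11.20 and 11.31 in CHES-1-like nulls, and 11.25, 11.22 and 11.26 in the jumu deficiency. Both mutants were below controls and overlapped each other. The change was -0.16 (SE 0.042, adjusted p = 0.019) in CHES-1-like nulls and -0.17 (adjusted p = 0.0144) in the jumu deficiency. The first call was kept without CHES-1-like null replicate 3 and lost without any 1 of the other 5 arrays (adjusted p up to 0.0649), and the second was lost under quantile normalization (-0.13, adjusted p = 0.0501).

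Rpn8 went the other way in the jumu deficiency. Its signal was 10.81, 10.86 and 10.81 in controls, 10.76, 10.70 and 10.76 in CHES-1-like nulls, and 11.07, 11.05 and 11.16 in the jumu deficiency. The jumu deficiency arrays were the highest, and the change was 0.27 (SE 0.044, adjusted p = 0.00131) from controls and 0.36 (adjusted p = 0.000168) from CHES-1-like nulls. The small negative value in CHES-1-like nulls, -0.088, was not called (adjusted p = 0.178).

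Rpn6, which clamps the lid to the core in yeast, was read at 12.24, 12.19 and 12.22 in controls, 12.27, 12.29 and 12.26 in CHES-1-like nulls, and 11.88, 12.09 and 11.89 in the jumu deficiency. The jumu deficiency arrays were lowest but uneven, with replicate 2 nearer to the other groups. Rpn6 changed by -0.26 (SE 0.058, adjusted p = 0.00709) from controls and by -0.32 (adjusted p = 0.00185) from CHES-1-like nulls.

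Rpn7, a structural lid subunit, was read at 10.90, 10.86 and 10.89 in controls, 10.79, 10.77 and 10.75 in CHES-1-like nulls, and 10.88, 10.89 and 10.90 in the jumu deficiency. The CHES-1-like null arrays were the lowest and the other groups overlapped. The change was -0.11 (SE 0.036, adjusted p = 0.0447) from controls, lost whichever of the 6 arrays was left out (adjusted p = 0.0663 to 0.131) and under quantile normalization (adjusted p = 0.0921). Between the mutants it was 0.12 (adjusted p = 0.0302), kept only without CHES-1-like null replicate 1 (adjusted p up to 0.0797 otherwise) and lost after centring (adjusted p = 0.179). The lid genes Rpn3, Rpn5 and Rpn12 were not called, with values from -0.13 for Rpn12 between the mutants to 0.11 for Rpn12 in CHES-1-like nulls. Some alternative limma fits called them. With a variance trend and robust estimation Rpn3 was lower and Rpn12 higher in CHES-1-like nulls (adjusted p = 0.0105 and 0.0111). In that fit Rpn5 was lower in the jumu deficiency (adjusted p = 0.0382).

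**Figure D3:**
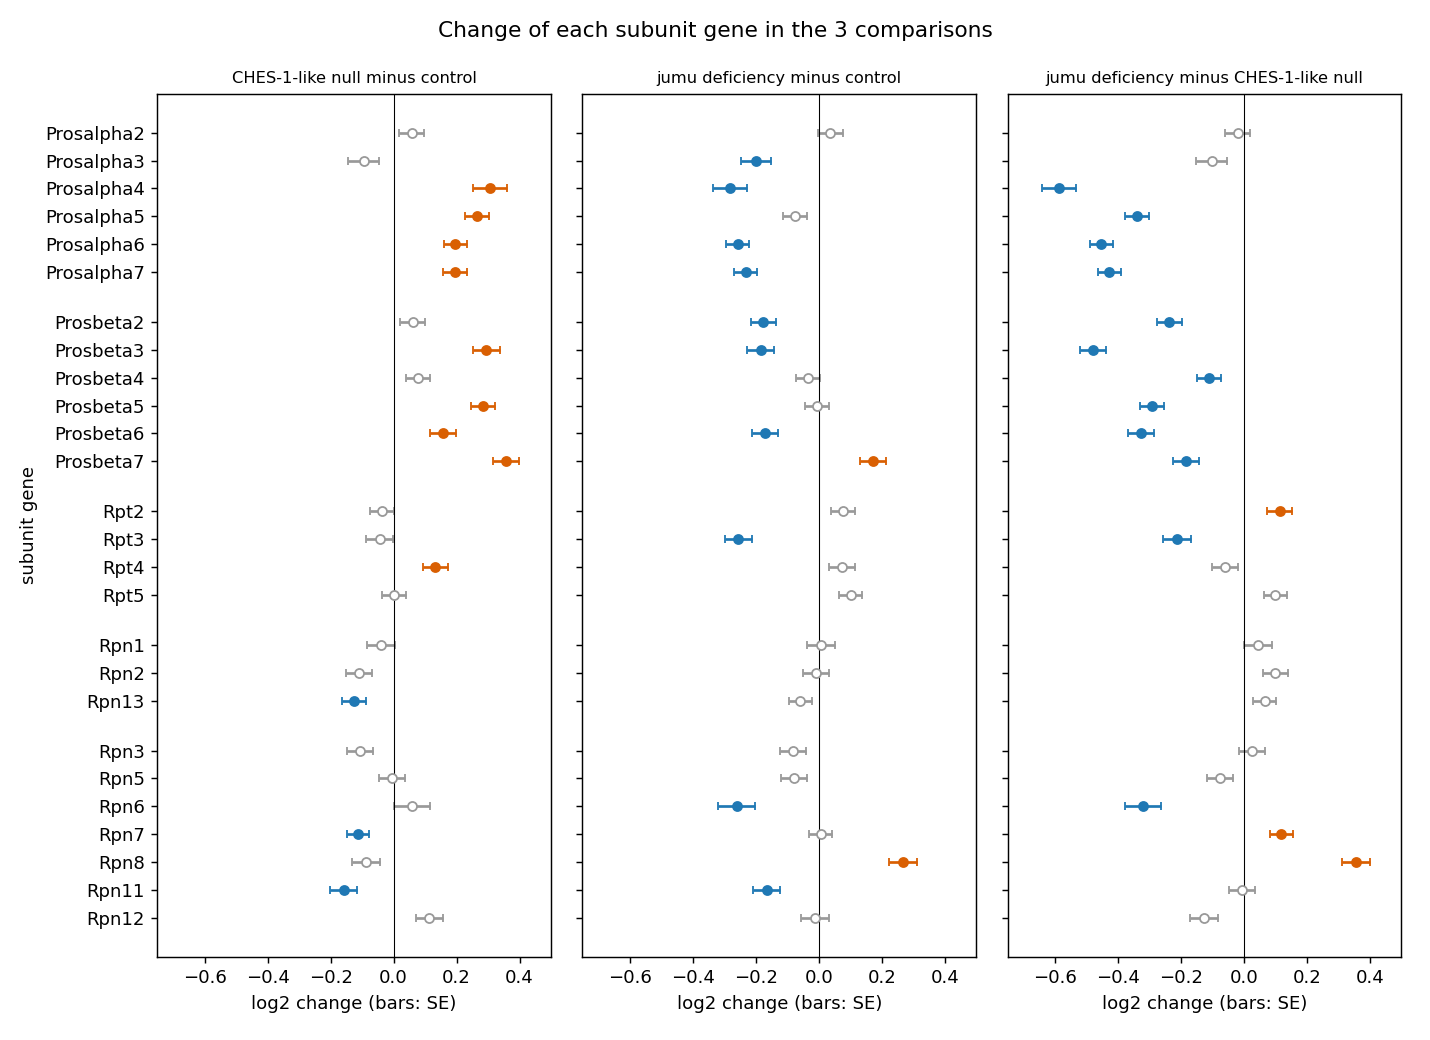
Log2 change of each subunit gene in the 3 comparisons, with the SE of the limma fit as bars; orange points were higher and blue points lower at an adjusted p under 0.05, and open points were not called. Core genes formed a block of 8 higher, 7 lower (with Prosbeta7 higher) and 10 lower from left to right, and regulatory genes were called in both directions in every panel.

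The 14 second copies gave little signal in these cells. Their means ran from 3.76 to 5.74, against a chemoreceptor median of 4.15, and only Prosalpha4T2, Rpn13R and Rpt3R had a mean above the background bound of 5.28. Testis markers were mixed: 2 of 5 were above the bound, and can, sa and dj were not. Folds of copies under the bound understate any change. In CHES-1-like nulls 0 copies were higher and 1 was lower than in controls (limma, with 3 of 14 at an unadjusted p under 0.05). In the jumu deficiency 1 was higher and 1 lower, and between the mutants 1 was higher and 1 lower. A count of 1 is 7.14% of the copies. Of all genes, the shares higher and lower were 17.1% and 18.6%, 17.6% and 21%, and 21.2% and 21.1% in the same order. The copies were thus called less often than genes in general.

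Rpn13R, a copy of the ubiquitin receptor, was the brightest. Its signal was 5.97, 6.01 and 5.93 in controls, 5.85, 5.71 and 5.42 in CHES-1-like nulls and 5.49, 5.67 and 5.57 in the jumu deficiency. All mutant arrays were below controls, and those of CHES-1-like nulls were spread widely. Its change was -0.31 (SE 0.098, adjusted p = 0.0413) in CHES-1-like nulls and -0.39 (adjusted p = 0.0129) in the jumu deficiency. The first call was kept without CHES-1-like null replicate 1 and lost without any 1 of the other 5 arrays compared (adjusted p up to 0.112), and without CHES-1-like null replicate 3 the change itself was -0.19. Without that array Rpn13R was also called between the mutants, at -0.20 (adjusted p = 0.0405), against -0.083 (adjusted p = 0.588) with all arrays.

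Prosalpha4T2 was read at 5.19, 5.36 and 5.28 in controls, 5.24, 5.22 and 5.41 in CHES-1-like nulls and 5.44, 5.49 and 5.42 in the jumu deficiency, where all arrays were above the others. It was not called, at 0.18 (SE 0.063, adjusted p = 0.0606) against controls and 0.16 (adjusted p = 0.0752) against CHES-1-like nulls; without control replicate 2 the first was called (0.22, adjusted p = 0.0468), and without CHES-1-like null replicate 3 the second (0.22, adjusted p = 0.0158). Rpt3R was read at 5.61, 5.66 and 5.54 in controls, 5.50, 5.40 and 5.59 in CHES-1-like nulls and 5.25, 5.56 and 5.59 in the jumu deficiency, and the groups overlapped. Rpt3R was not called in any comparison, with changes from -0.14 to -0.030.

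Rpt4R, a copy of an ATPase gene, had the largest positive value of any member in the jumu deficiency while staying under the background bound. Its signal was 4.03, 4.34 and 4.14 in controls, 4.19, 4.21 and 4.19 in CHES-1-like nulls and 4.75, 4.85 and 4.56 in the jumu deficiency. The jumu deficiency arrays lay above all others, and the change was 0.55 (SE 0.091, adjusted p = 0.0013) from controls and 0.52 (adjusted p = 0.0014) from CHES-1-like nulls. Prosbeta5R2, also under the bound, was lower in the jumu deficiency than in CHES-1-like nulls, at -0.28 (adjusted p = 0.00668).

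**Figure D4:**
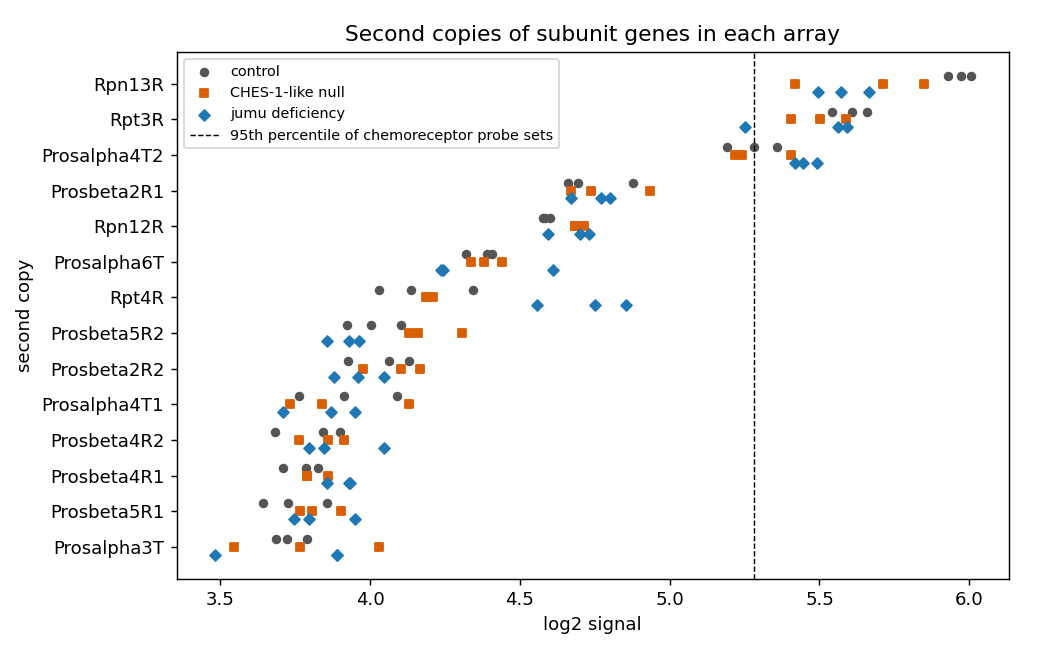
Log2 signal of the 14 second copies in each array, ordered by mean, with the 95th percentile of the chemoreceptor probe sets as a dashed line. Only Rpn13R, Rpt3R and Prosalpha4T2 reached the line, at 5.28, and the jumu deficiency arrays of Rpt4R stood above its other arrays while remaining to the left of it.

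The genes around the proteasome were described with 7 lists, of which 62 of 80 symbols were measured. In CHES-1-like nulls 16 of the 62 were higher and 9 were lower, in the jumu deficiency 12 were higher and 13 lower, and between the mutants 15 were higher and 20 lower. The shares of all genes higher and lower were 17.1% and 18.6%, 17.6% and 21%, and 21.2% and 21.1% in the same order of comparisons. Of the bright genes they were 26.2% and 29.9%, 21.6% and 30.1%, and 31% and 30.6%. The counts of each list below have to be read against these shares. The medians of the 62 genes were 0.010, -0.0016 and -0.020, against 0.025, 0.013 and 0.00092 for all genes. Both directions were called in every comparison, but the split in the jumu deficiency depended on the scaling. After centring each array on its median it was 8 higher and 20 lower there, with a median of -0.060, and 10 were higher in CHES-1-like nulls.

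Of 8 assembly chaperones, activators and regulators, 2 were higher and 2 lower in CHES-1-like nulls, 1 and 1 in the jumu deficiency, and 2 and 2 between the mutants. Pomp, the maturation factor of the core particle, was read at 9.47, 9.43 and 9.46 in controls, 9.62, 9.78 and 9.57 in CHES-1-like nulls and 9.46, 9.38 and 9.35 in the jumu deficiency. The CHES-1-like null arrays were the highest, at 0.20 (SE 0.059, adjusted p = 0.0286); the call was kept only without CHES-1-like null replicate 1 or replicate 3 (adjusted p up to 0.0874 otherwise) and lost after centring (adjusted p = 0.111). Between the mutants Pomp changed by -0.26 (adjusted p = 0.0065).

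PSMG1, named for a chaperone of alpha ring assembly known from mammals, was higher in the jumu deficiency by 0.23 (SE 0.044, adjusted p = 0.00277). REG, the homologue of a mammalian activator that opens the core, was lower in CHES-1-like nulls at -0.18 (adjusted p = 0.0149), a call lost without control replicate 2 (adjusted p = 0.0573). PI31, a binding partner of the proteasome, was lower in the jumu deficiency at -0.15 (adjusted p = 0.0406), kept only without jumu deficiency replicate 3 (adjusted p up to 0.129 otherwise), and lost under quantile normalization (adjusted p = 0.0715). The F-box gene ntc was higher in CHES-1-like nulls by 0.28 (adjusted p = 0.00703), and CG8858 was lower at -0.38 (adjusted p = 0.0133).

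Among 5 transcription factor genes and partners known for proteasome genes, 3 were higher and 1 lower in CHES-1-like nulls. In flies cnc encodes the activator that raises proteasome gene transcription when proteasomes are inhibited, and Keap1 its inhibitor. The cnc signal was 8.61, 8.59 and 8.54 in controls, 8.84, 8.91 and 8.95 in CHES-1-like nulls and 8.76, 8.74 and 8.82 in the jumu deficiency. Both mutants were above controls, by 0.32 (SE 0.045, adjusted p = 0.000551) and 0.19 (adjusted p = 0.00933); the second call was lost after centring (0.13, adjusted p = 0.0667). Keap1 was lower in both, at -0.20 (adjusted p = 0.00813) and -0.24 (adjusted p = 0.00299). A second, dim probe set of cnc, with a mean of 3.43, was not called.

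The partner gene maf-S changed by 0.14 (adjusted p = 0.0181) in CHES-1-like nulls and by -0.15 (adjusted p = 0.0125) between the mutants. Dref, which encodes a DNA-binding factor of many growth genes, changed by 0.15 (adjusted p = 0.0145) and -0.15 (adjusted p = 0.0114) in the same comparisons. In CHES-1-like nulls the maf-S call was lost without any 1 of 3 of the 6 arrays, control replicate 1, control replicate 2 and CHES-1-like null replicate 2 (adjusted p up to 0.0719), and the Dref call without control replicate 3 or CHES-1-like null replicate 2 (adjusted p up to 0.0575). Both were lost after centring (adjusted p = 0.138 for maf-S and 0.117 for Dref). Pngl was not called in any comparison.

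Delivery of substrates was read from 7 genes. Rad23, which shuttles ubiquitinated proteins to the proteasome, was read at 11.46, 11.43 and 11.41 in controls, 11.76, 11.78 and 11.72 in CHES-1-like nulls and 11.32, 11.26 and 11.24 in the jumu deficiency. It lay on 3 separate levels. The changes were 0.32 (SE 0.041, adjusted p = 0.000286), -0.16 (adjusted p = 0.0153) and, between the mutants, -0.48 (adjusted p = 1.4e-05); the second call was lost without control replicate 1 or jumu deficiency replicate 3 (adjusted p up to 0.0606). TER94, the p97 ATPase that extracts ubiquitinated proteins, was higher in the jumu deficiency by 0.18 (adjusted p = 0.00955), a call lost after centring (0.12, adjusted p = 0.123), and its cofactor gene p47 was lower in CHES-1-like nulls at -0.22 (adjusted p = 0.00164) and higher in the jumu deficiency at 0.19 (adjusted p = 0.0039). Over the list 1 was higher and 2 lower in CHES-1-like nulls, 3 and 2 in the jumu deficiency, and 4 and 2 between the mutants.

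Ubiquitin supply and conjugation were read from 8 genes. Ubc2, which encodes a ubiquitin-conjugating enzyme, was read at 11.09, 10.97 and 11.03 in controls, 11.50, 11.59 and 11.48 in CHES-1-like nulls and 10.84, 10.88 and 10.87 in the jumu deficiency. It also lay on 3 separate levels, with changes of 0.49 (SE 0.048, adjusted p = 5.18e-05), -0.17 (adjusted p = 0.0221) and -0.67 (adjusted p = 4.44e-06). The second call was lost without any 1 of control replicate 1, control replicate 3 and jumu deficiency replicate 1 (adjusted p up to 0.0849). The polyubiquitin gene Ubi-p5E was lower in both mutants, at -0.67 (adjusted p = 8.97e-05) and -0.55 (adjusted p = 0.000259), while Ubi-p63E was not called in any comparison; ubiquitin genes share near-identical repeats, so their probe sets may not tell them apart. Over the list 2 were higher and 1 lower in CHES-1-like nulls, 0 and 3 in the jumu deficiency, and 0 and 3 between the mutants.

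Of 11 deubiquitinase genes, 3 were higher and 2 lower in CHES-1-like nulls, 3 and 3 in the jumu deficiency, and 4 and 4 between the mutants. Uch-L5, whose product docks on the proteasome through Rpn13, was higher in CHES-1-like nulls by 0.33 (SE 0.055, adjusted p = 0.00154) and changed by -0.26 (adjusted p = 0.0051) between the mutants. Usp5, which takes apart free ubiquitin chains, was higher in the jumu deficiency by 0.31 (adjusted p = 0.000169) and lower in CHES-1-like nulls at -0.17 (adjusted p = 0.00715). The gene faf changed most between the mutants, by -1.16 (SE 0.080, adjusted p = 3.44e-06); of its other probe sets 1 gave -1.21 (adjusted p = 2.07e-05) and the dimmer one, under the background bound, was not called.

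The COP9 signalosome, a relative of the lid that removes Nedd8 from cullins, had 3 of 9 genes higher and 0 lower in CHES-1-like nulls, 1 higher and 1 lower in the jumu deficiency, and 1 higher and 3 lower between the mutants. CSN4 changed by 0.18 (SE 0.042, adjusted p = 0.00925), -0.27 (adjusted p = 0.000838) and -0.45 (adjusted p = 2.34e-05) in that order; the first call was lost after centring (0.15, adjusted p = 0.0713). The gene counted as higher in the latter comparisons was CSN1a, at 0.46 (adjusted p = 0.00175) and 0.42 (adjusted p = 0.00277), whose mean signal of 4.79 is under the background bound. CSN1b changed by 0.30 (adjusted p = 0.000889), -0.12 (adjusted p = 0.0713, not called) and -0.42 (adjusted p = 7.01e-05). Of 14 cullin ligase genes 2 were higher and 1 lower in CHES-1-like nulls, 3 and 2 in the jumu deficiency, and 4 and 4 between the mutants. Nedd8 itself was higher in CHES-1-like nulls by 0.34 (SE 0.041, adjusted p = 0.000206), and the ligase component gene SkpB was higher in the jumu deficiency by 1.04 (SE 0.11, adjusted p = 9.61e-05). The control signal of SkpB was near the background bound, at 5.15, 5.60 and 5.31.

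Markers of other cells and measures of RNA quality moved between the groups as well. For 6 epidermis markers the log2 of the summed linear signal was 12.19 to 12.25 in controls and 12.92 to 12.96 in CHES-1-like nulls. It was 11.92 to 11.94 in the jumu deficiency, so the groups had the order of the core particle. Of these markers 6 of 6 were higher in CHES-1-like nulls, 3 of 6 were lower in the jumu deficiency, and 6 of 6 were lower between the mutants. The log2 of the summed signal of the stress genes Hsp26 and Hsp68 was 11.47 to 11.52, 11.87 to 11.94 and 10.94 to 10.95 in the same order of groups. Of 6 haemocyte markers 3 were higher in each mutant and 0 lower (limma). Their summed signal had another order, 14.03 to 14.05 in controls, 14.21 to 14.22 in CHES-1-like nulls and 14.61 to 14.63 in the jumu deficiency. Of 6 neural markers 2 were higher in CHES-1-like nulls, and 1 was higher and 4 were lower in the jumu deficiency. Their summed signal had the order of the core particle, at 12.92 to 12.96, 12.98 to 13.03 and 12.35 to 12.78. So had 3 germ cell markers, 1 of them above background, at 8.09 to 8.13, 8.34 to 8.42 and 7.42 to 7.43. The 5 testis markers did too, at 9.36 to 9.40, 9.42 to 9.55 and 8.56 to 8.72, with 2 lower in the jumu deficiency. Mesoderm markers moved as well: of 5, the jumu deficiency had 4 higher and 1 lower, and CHES-1-like nulls had 1 higher and 1 lower. The log2 of their summed signal was 12.92 to 13.03 in the jumu deficiency against 12.80 to 12.85 in controls. The 3 prime minus 5 prime difference of the actin control transcript was 1.04 ± 0.0096 in controls, 0.94 ± 0.065 in CHES-1-like nulls and 1.26 ± 0.035 in the jumu deficiency (SD, n = 3). In the same order of groups GAPDH had 0.34, 0.081 and 0.42, eIF-4a had 1.07, 1.15 and 1.35, and 18S rRNA had 0.95, 0.81 and 0.76, so the control transcripts did not all rank the groups alike. The part of any of these in the subunit changes was not tested, and in sorted bulk cells fewer cells of a type and less RNA per cell cannot be told apart.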

How the data were processed

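Affymetrix arrays measured total RNA of sorted cells, 9 arrays in 3 groups taken from the genotypes in the titles. Values were deposited as 1 number per probe set and array. A range of 2.99 to 14.89 marks them as log2 signals that the authors had normalized between arrays, since array medians lay within 5.41 to 5.50. Of the tools used, affy is named in the submitters' processing notes, and its version and settings were not given in the sources used here. Any summarised signal flattens near background and saturates at the top, which understates changes of dim and very bright genes, and precision is limited by the number of arrays.

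The table held 18952 probe sets, of which 183 controls of the array were not tested. Symbols come from the platform annotation, updated for 13544 probe sets through the gene identifier to the Release 6 plus ISO1 MT annotation, which was otherwise used only for the order of genes. Each gene is read by its brightest probe set that names it alone. Group means were fitted with limma 3.58.1 (lmFit, eBayes) in R 4.3.3 on all 18769 tested probe sets and 9 arrays, with 6 residual degrees of freedom, Benjamini-Hochberg adjustment over all of them and a threshold of 0.05. The fit was first run on simulated data with independent noise and changes in few probe sets of the jumu deficiency only. Many genes differed in the real data, so that run checked the code and not the calls. SE is that of the fit and SD that of 3 arrays.

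Array values are printed, per comparison, for the 4 members of largest and the 4 of smallest change, the catalytic subunits and the copies above background, and for pathway lists up to 3 genes of smallest p are named. Other members are named with a change only. Ubi-p63E was chosen after their values were seen. The members, lists and tests were chosen with earlier results of these data known. Replicate numbers did not pair the arrays: same-numbered deviations from group means correlated at -0.136 to 0.150, over 0.1 in 2 of 9 pairs. Alternatives were quantile normalization, centring, a filter on dim probe sets, the mean of a gene's probe sets, a replicate block, fits of the compared groups only, robust estimation with a variance trend, weighted arrays, other thresholds and leaving out each array.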

Additional observations from a re-analysis of the deposited data

How the results depend on the processing

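The core particle counts kept their direction under every alternative run except the 1.5-fold minimum, which left 1 core gene, lower between the mutants, and 0 otherwise. With each array left out in turn, 7 to 8 core genes were higher in CHES-1-like nulls, 6 to 7 lower in the jumu deficiency and 9 lower between the mutants. Of 44 calls of single members, 30 were kept under every alternative in which the gene was tested singly, which leaves out the 1.5-fold minimum and the mean of probe sets, and 34 with each array left out. For 73 calls of named pathway genes the numbers were 54 and 61. With the 1.5-fold minimum 1 of the 44 member calls remained. No called value changed sign. Alternatives for the particles and the pathway genes were added after seeing the data.

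Calls of the regulatory particle rested on small changes. In CHES-1-like nulls, leaving out 1 array gave 0 to 1 higher and 0 to 1 lower regulatory genes and 0 to 2 lower members; between the mutants it gave 1 to 2 higher regulatory genes and 2 to 3 higher members. Fewer arrays give fewer degrees of freedom.

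With quantile normalization, regulatory genes numbered 2 higher in the jumu deficiency, and 5 were higher between the mutants. Centring each array on its median gave core medians of 0.16 in CHES-1-like nulls and -0.23 in the jumu deficiency, 0 core genes higher in the latter, regulatory medians of -0.075 and -0.069 with 0 higher in CHES-1-like nulls and 5 lower in the jumu deficiency, a median of -0.081 over all members in that comparison, and between the mutants 2 members and 1 regulatory gene higher; of pathway genes, 10 were higher in CHES-1-like nulls and 20 lower in the jumu deficiency, with a median of -0.060. Centring also moved the share of higher genes among all calls from 45.7% to 31.7% in the jumu deficiency, from 47.8% to 39.2% in CHES-1-like nulls and from 50.1% to 45.3% between the mutants. The cause was not tested.

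Without the lower 40% of probe sets, regulatory genes numbered 2 higher and 5 lower in CHES-1-like nulls, 2 higher in the jumu deficiency and 5 higher between the mutants, and the member median in the jumu deficiency was -0.075 because dim copies left the set. With the mean of a gene's probe sets, 6 members and 2 regulatory genes were higher in the jumu deficiency. With the replicate number as a replicate block, 2 members were lower in CHES-1-like nulls, with 0 regulatory genes higher and 1 lower, and 2 members and 1 regulatory gene were higher between the mutants. With only the compared groups fitted these were 1, 0, 1, 2 and 1. A variance trend with robust estimation gave 8 members and 1 core gene lower in CHES-1-like nulls with 2 regulatory genes higher and 6 lower, 5 members higher in the jumu deficiency with 3 regulatory genes higher and 5 lower, and 5 higher and 4 lower between the mutants. Array weights gave 5 members and 2 regulatory genes higher in the jumu deficiency.

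At an adjusted p of 0.01, 0 members and 0 regulatory genes were lower and 0 regulatory genes higher in CHES-1-like nulls, 7 members were lower and 0 core genes higher in the jumu deficiency, and 2 members and 1 regulatory gene were higher between the mutants; of pathway genes 10 were higher in CHES-1-like nulls and 9 between the mutants. Past 1.5-fold, 0 members changed in CHES-1-like nulls or the jumu deficiency, 1 was lower and 0 higher between the mutants, and of pathway genes 1 was higher and 1 lower, 1 and 0, and 1 and 2. The number of arrays limits what can be called: regulatory changes had a median SE of 0.041.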
